A study of Mus musculus with 10 samples.

Results

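Imprinted genes were followed through RNA sequencing libraries of NeuN+ nuclei, the neuronal nuclei sorted from the brains of adult C57BL/6J mice. The set was 45 genes named by symbol, each found once by its Ensembl identifier among the 54532 genes counted, and they lie in 19 imprinted loci. After removal of genes with low counts, 38 of the 45 were tested among 18573 genes. The remaining 7 (Dio3, Peg12, Kcnq1, Phlda2, Igf2, H19 and Peg10) had between 0 and 38 counts summed over all libraries and are given by their counts.

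The 10 libraries fell into 3 groups. The control group had 5 libraries from mice with floxed alleles but no Nestin-Cre transgene, of which replicates 1 to 3 carried Mphosph8 fl/fl and replicates 4 and 5 carried Morc2a fl/fl. The Mphosph8∆n group (n = 3) carried Mphosph8 fl/fl with Nestin-Cre, and the Morc2a∆n group (n = 2) carried Morc2a fl/fl with Nestin-Cre. Every mouse therefore had floxed alleles, while no library came from mice with Cre alone, so the deletion and the transgene cannot be told apart. Nestin-Cre acts from neural progenitors on, so the genes were lost during brain development and not only in the adult. The total count per library ranged from 6686038 (control replicate 5) to 10764555 (control replicate 3), and 3 counts corresponded to between 0.281 and 0.446 CPM, the unit in which counts are given relative to the scaled library size. The labels do not tie libraries to mice one by one, so p-values measure the spread between libraries.

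The neuronal identity of the nuclei was checked with 10 pan-neuronal genes, all of which were detected in all libraries. Snap25, a synaptic vesicle fusion protein, was the most abundant of them (mean 1760 CPM). Their summed level was 4820 to 5510 CPM in control, 4820 to 5190 CPM in Mphosph8∆n, and 4480 and 3810 CPM in Morc2a∆n, so both Morc2a∆n libraries lay below all controls. None of the 10 passed the threshold in Morc2a∆n, and 3 of the 10 log2 fold changes were positive. The smallest edgeR adjusted p was that of Snap25 (log2 fold change -0.47, adjusted p = 0.0528). An unadjusted p below 0.05 was found for 6 of them (10.7% of all genes), of which Snap25, Syt1, Nefl, Tubb3 and Syn1 had lower values, from -0.41 to -0.60 on the log2 scale, while Map2 had a higher one (0.33, edgeR adjusted p = 0.419). Rbfox3, the gene of the NeuN antigen used for the sort, had 0.19. Sums for some other cell types were lower in both Morc2a∆n libraries too, while the astrocyte sums overlapped with control. The 8 oligodendrocyte markers, all detected and led by Mbp (mean 487 CPM), summed to 687 and 560 CPM against 755 to 986 CPM in control, and the 8 astrocyte markers, all detected and led by Aldoc (mean 340 CPM), to 510 and 382 CPM against 502 to 674 CPM. The 8 inhibitory neuron markers, all detected and led by Gad1 (mean 808 CPM), summed to 1070 and 953 CPM against 1100 to 1540 CPM, with both Morc2a∆n libraries below all controls and all 8 log2 fold changes below 0. The part of these lists in the results was not tested. Fewer nuclei of a type and less RNA per nucleus cannot be told apart in such bulk libraries.

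Whole groups stood apart in markers of midbrain and hindbrain. The 8 genes of this list, all detected and led by Slc17a6 (a vesicular glutamate transporter, mean 105 CPM), summed to 147, 146, 143, 134 and 135 CPM in control, 175, 184 and 170 CPM in Mphosph8∆n, and 111 and 95.6 CPM in Morc2a∆n. The Mphosph8∆n libraries lay above all controls and the Morc2a∆n libraries below. None of the 7 genes tested passed the threshold in edgeR's test, and an unadjusted p below 0.05 was found for 3 in Mphosph8∆n (42.9%, against 5.67% of all genes), Slc17a6, Gata3 and Slc6a5, all with higher values. In Morc2a∆n the lower sum was that of Slc17a6, with 67.3 and 60.4 CPM against 94.3 to 116 CPM in control (log2 fold change -0.75, edgeR adjusted p = 0.0652), while 4 of the 7 were positive.

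Single libraries stood apart in the summed markers of other regions or neighbouring tissue. Of 10 pituitary genes, 7 had a count, and their sum was 302 CPM in Mphosph8∆n replicate 2 against 4.03 to 27.9 CPM elsewhere. Pomc was the most abundant of them (162 CPM in that library), followed there by Gh with 108 CPM and Prl with 17.7 CPM, while Fshb, Pitx1 and Ghrhr were at 0 in all libraries. Gh passed the threshold in Mphosph8∆n (log2 fold change 8.54, edgeR adjusted p = 0.00494), with 1.66 and 3.93 CPM in the other libraries of the group. In Morc2a∆n Gh had 3.73 and 2.69 CPM (log2 fold change 4.98, edgeR adjusted p = 0.196), against 0 to 0.297 CPM in control. Gh alone thus lay above every control in all Mphosph8∆n and Morc2a∆n libraries, all of which carry Nestin-Cre. The deletion and the transgene cannot be told apart here, and the cause was not tested. Of the 5 pituitary genes tested, 3 had an unadjusted p below 0.05 in Mphosph8∆n (60%, against 5.67% of all genes). Markers of cerebellar granule cells summed to 569 CPM in control replicate 4 and to 330 and 500 CPM in Mphosph8∆n replicates 1 and 2, against 81.4 to 131 CPM in the other libraries. All 8 of these genes had counts, and Cbln1 was the most abundant (mean 39.2 CPM). Values without Mphosph8∆n replicate 2 are given for Ndn, Sgce and Commd1, and the part of these 3 marker lists in the results was not tested.

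The transcript of the targeted genes was not lost at the gene level. Mphosph8, which encodes the chromodomain protein MPP8 of the HUSH complex, had 32.2, 33.5, 37.2, 49 and 41.6 CPM in control and 37.2, 36 and 18.8 CPM in Mphosph8∆n (log2 fold change -0.34, edgeR adjusted p = 0.967). Morc2a, an ATPase that compacts chromatin with HUSH, had 163, 139, 138, 122 and 140 CPM in control and 215 and 223 CPM in Morc2a∆n (log2 fold change 0.64, edgeR adjusted p = 0.0916). The deletion removes 1 exon and shifts the reading frame, which exposes the transcript to decay, but the count over the whole gene includes the exons that stay and did not fall in either knockout past the threshold. The labels were not checked by these counts and are taken as given, so that Mphosph8∆n and Morc2a∆n below stand for the libraries labelled so. The study checked the deletion in each line by RT-qPCR and immunoblot of whole brain. It also measured Mphosph8 and Morc2a by RT-qPCR in sorted NeuN+ nuclei. These measurements were not analysed here.

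Imprinted genes are expressed from the allele of only one parent, as set by DNA methylation that differs between egg and sperm and is kept at imprinting control regions through development. KRAB zinc finger proteins such as ZFP57 and ZFP445 bind these regions and recruit TRIM28 and the H3K9 methyltransferase SETDB1, which is also the partner through which HUSH deposits H3K9me3. Many imprinted genes are highly expressed in neurons, some with an allele choice or isoform that differs from other tissues. The counts do not separate the parental alleles, so a change in level is described below and not a change in imprinting.

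ZFP57 recognises the hexamer TGCCGC when its CpG is methylated. This hexamer was searched, as TGCCGC or its reverse complement GCGGCA on both strands, in the RefSeq promoter windows (GRCm38.p6), which span 250 bases before to 50 bases after each start. The table holds windows for 36 of the 45 genes and not for Cdkn1c, H19, Impact, Kcnk9, Kcnq1, Peg10, Peg13, Sgce and Trappc9. The hexamer stood in at least 1 window of 13 of the 36 genes (36.1%), against 13.1% of all 27025 genes with windows, and in 25.9% of the 54 windows against 11.6% of all 32851. The windows of imprinted genes also held more CpG dinucleotides (median 14.5 against 7), whose part in this share was not tested. The 13 genes were Calcr, Commd1, Copg2, Grb10, Igf2, Meg3, Mest, Nap1l5, Nnat, Plagl1, Snrpn, Zdbf2 and Zim1.

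The 250 bases before the start are shown for the most abundant imprinted gene, Meg3, and for the 3 with the smallest p in Morc2a∆n, Snrpn, Blcap and Nap1l5, with the hexamer in capitals. Of the 4 RefSeq starts of Snrpn and the 2 of Meg3, the one whose window held the hexamer is shown.
Meg3, chr12:109540746-109540995, plus strand: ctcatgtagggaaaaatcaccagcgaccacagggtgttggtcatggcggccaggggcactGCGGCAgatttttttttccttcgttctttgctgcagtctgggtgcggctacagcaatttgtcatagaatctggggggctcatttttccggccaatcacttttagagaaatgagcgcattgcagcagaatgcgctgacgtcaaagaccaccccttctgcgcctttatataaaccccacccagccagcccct
Snrpn, chr7:60005200-60005449, minus strand: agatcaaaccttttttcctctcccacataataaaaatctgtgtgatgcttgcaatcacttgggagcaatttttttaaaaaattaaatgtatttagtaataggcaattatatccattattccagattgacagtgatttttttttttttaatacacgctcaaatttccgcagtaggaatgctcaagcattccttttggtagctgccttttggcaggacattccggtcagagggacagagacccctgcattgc
Blcap, chr2:157566362-157566611, minus strand: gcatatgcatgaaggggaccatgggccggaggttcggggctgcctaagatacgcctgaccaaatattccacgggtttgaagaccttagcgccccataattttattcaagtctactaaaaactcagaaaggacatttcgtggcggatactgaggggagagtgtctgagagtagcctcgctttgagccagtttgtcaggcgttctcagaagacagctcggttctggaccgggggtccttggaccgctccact
Nap1l5, chr6:58907127-58907376, minus strand: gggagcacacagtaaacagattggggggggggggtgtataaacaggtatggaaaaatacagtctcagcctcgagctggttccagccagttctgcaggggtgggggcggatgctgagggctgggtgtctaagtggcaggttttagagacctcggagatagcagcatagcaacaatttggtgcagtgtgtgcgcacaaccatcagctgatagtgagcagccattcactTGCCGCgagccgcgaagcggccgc
Meg3 held the hexamer once in the bases shown. Nap1l5 held it once in the bases shown and once more in the 50 bases after its start. The single copy in the Snrpn window spanned the start and is not in capitals, while the window of Blcap did not have these letters. Blcap and Snrpn starts lie within their annotated genes, and the bases shown for Nap1l5 lie within the gene Herc3 on the opposite strand. The bases after the start were part of an annotated transcript for Meg3 and Blcap, but not for Snrpn and Nap1l5.

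The levels of imprinted genes in these nuclei spanned several orders of magnitude. Meg3, a maternally expressed noncoding RNA that stays in the nucleus, was by far the most abundant with a mean of 9770 CPM, rank 2 of all genes counted. It was also the highest on the scale that allows genes to be compared, CPM per kb of exonic bases, with a mean of 540 over all libraries. Nap1l5, a nucleosome assembly protein family member, followed with 214 CPM per kb. Next came Ndn (110 CPM per kb), Impact (91.1 CPM per kb), Rasgrf1 (78.9 CPM per kb) and Snrpn (68.5 CPM per kb). In single libraries Impact had 72.8 to 104 CPM per kb, a range that overlapped with those of its neighbours Ndn (54.8 to 214) and Rasgrf1 (70 to 89.6). The range of Ndn also reached into that of Nap1l5 (167 to 252), whereas the lowest library of Meg3 had 444 CPM per kb, above all other imprinted genes.

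**Figure D1:**
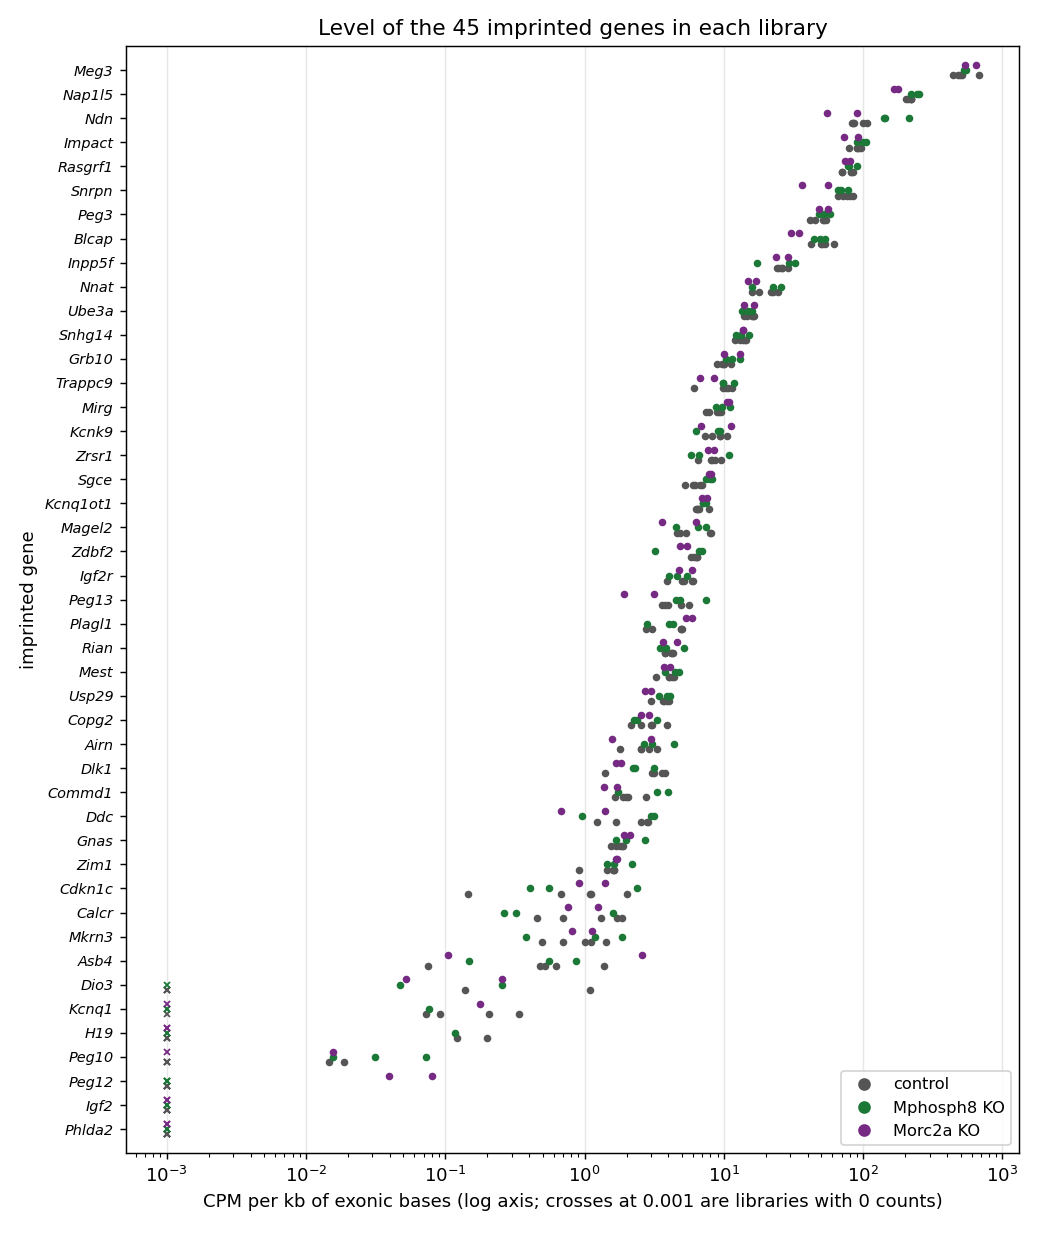
Level of each of the 45 imprinted genes in each of the 10 libraries, as CPM per kb of exonic bases on a log axis, with genes in the order of their mean and crosses at 0.001 for libraries with 0 counts. Meg3 stands alone at the top with a mean of 540, while Igf2 and Phlda2 had 0 counts in all libraries.

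At the other end were genes that are best known from embryo, placenta or other organs. Igf2, a fetal growth factor, and Phlda2, a placental growth regulator, had 0 counts in all 10 libraries, which allows a level of up to 0.446 CPM in the shallowest library. For Igf2 64.5% of the exonic bases are shared with other genes, so that its reads may not have been assigned. H19, the noncoding neighbour of Igf2, had 10 counts in all, in 3 libraries, with 5 in control replicate 2, 2 in control replicate 5 and 3 in Mphosph8∆n replicate 2. Peg10, a gene derived from a retrotransposon, had 11 counts, with at most 5 in a library. Peg12, an intronless gene in the same locus as Ndn, had 3 counts, 2 in Morc2a∆n replicate 1 and 1 in Morc2a∆n replicate 2. Kcnq1, a potassium channel, had 38 counts over 6 libraries, and Dio3, which inactivates thyroid hormone, had 30 counts over 6 libraries, of which 15 fell in control replicate 5. These counts are too few to compare groups. Igf2 and H19 are known from choroid plexus and leptomeninges, whose markers were present at low to moderate levels here. The 8 choroid plexus markers, all detected and led by Enpp2 (mean 124 CPM), summed to between 200 and 297 CPM per library, lowest in Morc2a∆n (200 and 205 CPM), and the 8 leptomeningeal markers, all detected and led by Dcn (mean 9.09 CPM), to between 8.26 and 26.9 CPM.

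Loss of Mphosph8 was compared with all 5 controls to ask whether a subunit of HUSH sets the level of imprinted genes. None of the 38 tested genes passed the threshold, a fold change of more than 2 with an adjusted p under 0.05 in edgeR's quasi-likelihood test, where 18 of all genes tested did (0.0969%), all of them higher, and none passed with DESeq2 or limma-voom either. Without a minimum fold change none of the 38 passed with edgeR, beside 0.113% of all genes. Of the 38, 2 had an unadjusted p below 0.05 (5.26%), Ndn and Sgce, against 5.67% of all genes. The log2 fold changes ranged from -0.73 to 0.85 with a median of 0.07, beside -0.01 over all genes tested, and 26 of the 38 were positive (68.4%, against 48.7% of all genes). With controls of the same floxed line alone the median of the 38 was 0.01. The 95% intervals of 31 of the 38 lay within a 2-fold change in either direction (81.6%, against 55.8% of all genes), so that a change beyond 2-fold lay outside the interval of these genes. The other 7 were Airn, Asb4, Calcr, Cdkn1c, Commd1, Mkrn3 and Ndn. Intervals are wider where counts are low, and the comparison with all genes was not matched for abundance.

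Ndn was the imprinted gene with the smallest p in Mphosph8∆n. Ndn (ENSMUSG00000033585) encodes necdin, a MAGE family protein abundant in postmitotic neurons, and consists of 1 exon on the plus strand of chromosome 7 (62346569 to 62350262, GRCm38). Ndn had 312, 396, 370, 317 and 305 CPM in control, 533, 789 and 516 CPM in Mphosph8∆n, and 335 and 203 CPM in Morc2a∆n. All 3 Mphosph8∆n libraries lay above every control, and the highest was replicate 2, the library with the highest sum of pituitary markers. The log2 fold change was 0.85 ± 0.16 (SE, 95% interval 0.51 to 1.19), with an adjusted p of 0.0541 in edgeR's test, which misses the threshold. Against controls of the same floxed line it was 0.77 (adjusted p = 0.251), and without Mphosph8∆n replicate 2 it was 0.63 (adjusted p = 0.643). The adjusted p lay below 0.05 with other settings, among them DESeq2 (0.000286), limma-voom (0.0224), a filter of at least 10 counts per library (0.0135) and the 2 compared groups alone (0.0234), but in none of these did the fold change exceed 2. Over all settings tried, with and without single libraries, the log2 fold change was 0.63 to 0.96 and the adjusted p between 1.66e-07 and 0.643. The summed midbrain and hindbrain markers, led by Slc17a6, also lay above all controls in all 3 Mphosph8∆n libraries, with replicate 2 the highest. In Morc2a∆n that sum lay below all controls, while Ndn overlapped with control. The part of these markers in the value of Ndn was not tested. The cerebellar granule cell markers were high in 2 of the 3 Mphosph8∆n libraries and in control replicate 4, where Ndn had 317 CPM. Their part was not tested either.

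Sgce (ENSMUSG00000004631, chromosome 6, 4674350 to 4747207, minus strand), which encodes epsilon-sarcoglycan, was the other gene whose Mphosph8∆n libraries did not overlap with control. Sgce had 63.6, 71.6, 66.3, 56.2 and 73.8 CPM in control, 87.3, 83.7 and 79.5 CPM in Mphosph8∆n, and 82.7 and 85.8 CPM in Morc2a∆n. Both knockouts thus lay above all controls, by 0.33 ± 0.14 in Mphosph8∆n (SE, log2 scale, edgeR adjusted p = 0.81, and 0.34 without replicate 2) and 0.35 ± 0.16 in Morc2a∆n (adjusted p = 0.433). Both comparisons use the same 5 controls, so a low control group raises both values, and neither passed the threshold. Ndn and Sgce made up 5.26% of the 38 genes, where 2.31% of all genes tested lay above every control in the same way. None of the 38 had all Mphosph8∆n libraries below the controls, where 2.26% of all genes did.

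**Figure D2:**
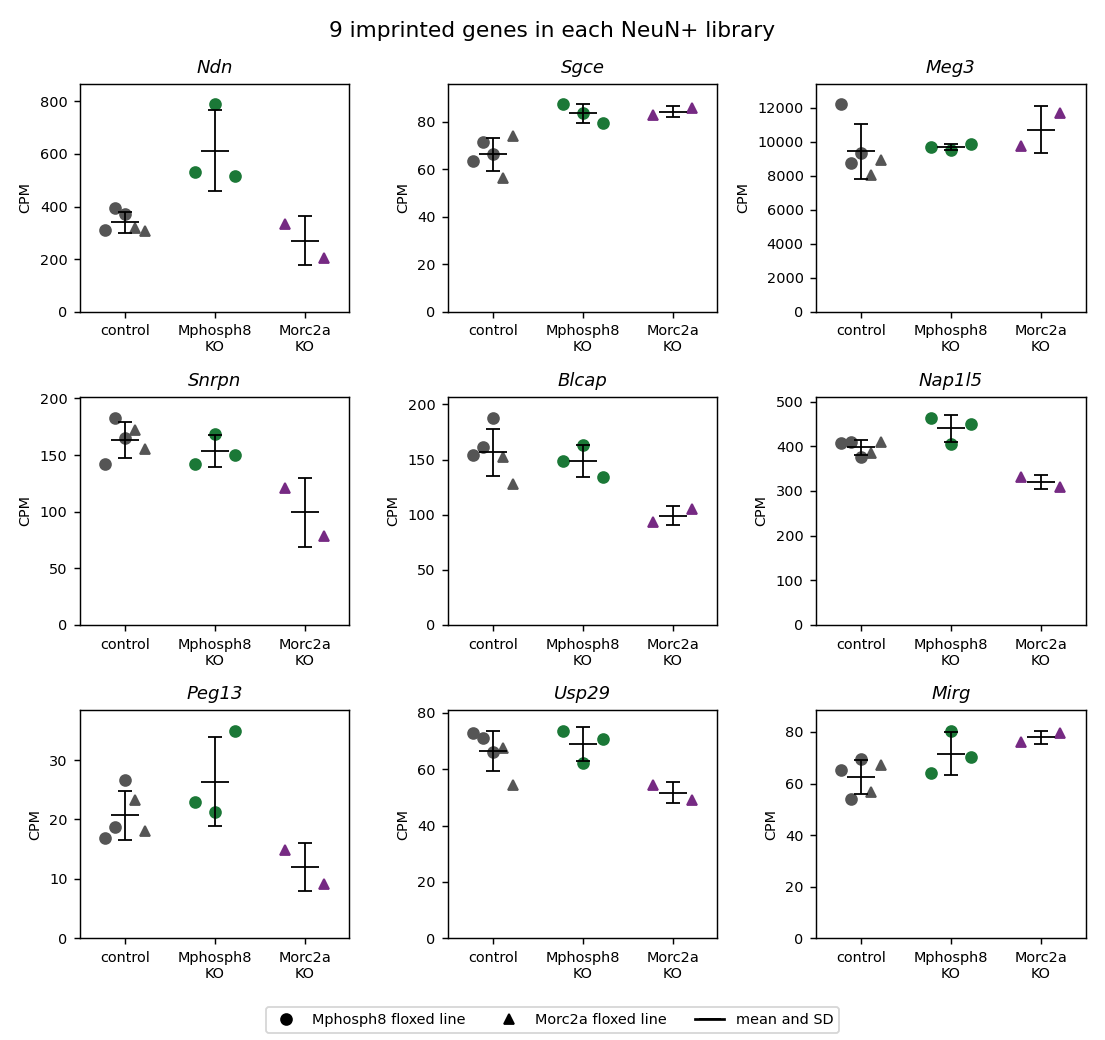
CPM of 9 imprinted genes in each library (vertical axes from 0), with circles for libraries of the Mphosph8 floxed line, triangles for those of the Morc2a floxed line, and bars for the mean and SD of control (n = 5), Mphosph8∆n (KO, n = 3) and Morc2a∆n (KO, n = 2). The Mphosph8∆n libraries of Ndn lay between 516 and 789 CPM, above all controls, and the Morc2a∆n libraries of Snrpn and Blcap lay below all controls.

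Intronless genes were considered apart, since HUSH is known to silence intronless transcription units. Of the 45 genes, 9 have 1 exon (Dio3, Ndn, Magel2, Mkrn3, Peg12, Kcnq1ot1, Peg13, Zrsr1 and Nap1l5), and 7 of them were tested. In Mphosph8∆n their median log2 fold change was 0.15 and 6 of the 7 were positive, beside 0.06 and 15 of 26 for the protein-coding genes with several exons. In Morc2a∆n the medians were -0.31, with 2 of 7 positive, and -0.02, with 11 of 26 positive. No gene of either class passed the threshold, and the difference between the classes was not tested. Of the 8 noncoding genes, 7 were tested, with medians of 0.09 in Mphosph8∆n and 0.04 in Morc2a∆n.

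Loss of Morc2a was compared with the same 5 controls. None of the 38 passed the threshold in edgeR's, DESeq2's or limma-voom's test, where 11 of all genes tested did with edgeR (0.0592%), 7 of them higher and 4 lower. Without a minimum fold change none of the 38 passed with edgeR, beside 0.0861% of all genes. An unadjusted p below 0.05 was found for 7 of the 38 (18.4%), against 10.7% of all genes, and of these 7 Sgce had a higher mean than control while Snrpn, Blcap, Nap1l5, Peg13, Ddc and Dlk1 had lower values. The log2 fold changes ranged from -1.09 to 1.12, with a median of -0.01 over the 38 and over all genes tested, and 17 of the 38 were positive (44.7%). The intervals of 27 lay within a 2-fold change in either direction (71.1%, against 48.5% of all genes, again not matched for abundance). The marker sums described above for neurons, inhibitory neurons, midbrain and hindbrain and oligodendrocytes were also lower in both Morc2a∆n libraries.

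Snrpn (ENSMUSG00000102252, chromosome 7, 59982495 to 60140219, minus strand), which encodes the neuronal spliceosomal protein SmN and is expressed from the paternal allele, had the smallest p in Morc2a∆n. Snrpn had 142, 183, 165, 172 and 155 CPM in control, 142, 169 and 150 CPM in Mphosph8∆n, and 121 and 78.1 CPM in Morc2a∆n. Both Morc2a∆n libraries lay below all controls, replicate 2 more than replicate 1. The log2 fold change was -0.72 ± 0.17 (SE, 95% interval -1.08 to -0.36), with an edgeR adjusted p of 0.127. Without Morc2a∆n replicate 1 Snrpn passed the threshold (log2 fold change -1.06, adjusted p = 0.0433), a call that rests on 1 library assumed to vary like the other groups, and without replicate 2 it was -0.44 (adjusted p = 0.591). Over all settings tried, the adjusted p of Snrpn was between 0.00323 and 0.591. Of its exonic bases 34.1% are shared with other genes, 27.3% on the same strand, and how reads in such bases were counted is not given in the sources used here.

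Blcap (ENSMUSG00000067787, chromosome 2, 157556362 to 157571274, minus strand), a small membrane protein gene whose intron holds Nnat, had a difference of like size. Blcap had 154, 161, 188, 152 and 128 CPM in control, 149, 163 and 134 CPM in Mphosph8∆n, and 92.9 and 105 CPM in Morc2a∆n. The 2 Morc2a∆n libraries lay below all controls, and the log2 fold change was -0.67 ± 0.16 (SE, 95% interval -1 to -0.33), with an edgeR adjusted p of 0.127. With controls of the same floxed line, which were lower than those of the other line, the difference was -0.51 (adjusted p = 0.375). With DESeq2 the adjusted p of both Snrpn and Blcap lay below 0.05, with a fold change below 2, and over all settings tried the adjusted p of Blcap was between 0.00271 and 0.375. Nnat, the paternally expressed neuronatin gene within Blcap, had 27.2 and 30.9 CPM in Morc2a∆n and between 29 and 44.6 CPM in control, so that the groups overlapped.

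The other genes with an unadjusted p below 0.05 in Morc2a∆n had higher adjusted values. Nap1l5 had 407, 410, 376, 384 and 409 CPM in control and 331 and 308 CPM in Morc2a∆n, a small but separate difference (log2 fold change -0.31 ± 0.11, edgeR adjusted p = 0.317). Peg13, a paternally expressed noncoding RNA within an intron of Trappc9, had 16.9 to 26.7 CPM in control and 14.8 and 9.09 CPM in Morc2a∆n (log2 fold change -0.80 ± 0.31, adjusted p = 0.355). The value of Peg13 was -1.19 without Morc2a∆n replicate 1 and -0.49 without replicate 2. Ddc, the decarboxylase that makes dopamine and serotonin, had 5.44 to 12.6 CPM in control and 6.28 and 3 CPM in Morc2a∆n, so the groups overlapped (log2 fold change -1.09 ± 0.51, adjusted p = 0.462), and Ddc likewise ranged from -1.72 without replicate 1 to -0.66 without replicate 2. The 10 monoaminergic markers, all detected and led by Th (mean 61.6 CPM), summed to between 96.9 and 148 CPM in control and to 102 and 101 CPM in Morc2a∆n, and their part in the value of Ddc was not tested. Dlk1, a transmembrane protein of the Notch ligand family, had 7.92 to 21.3 CPM in control and 10.3 and 9.5 CPM in Morc2a∆n, both within the control range (log2 fold change -0.77 ± 0.36, adjusted p = 0.463). Dlk1 is known from hypothalamic and pituitary cells. The 10 hypothalamic markers, all detected and led by Sst (mean 451 CPM), which other regions express too, summed to between 528 and 664 CPM in control and to 497 and 346 CPM in Morc2a∆n. Most of this sum was Sst, with 407 to 537 CPM in control and 387 and 252 CPM in Morc2a∆n, and without it the other 9 summed to between 97.8 and 127 CPM in control and to 110 and 93.3 CPM in Morc2a∆n. Their part was not tested.

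Counted over all 38 genes, 5 had both Morc2a∆n libraries above every control (Mirg, Zim1, Plagl1, Sgce and Gnas; 13.2%), where 7.59% of all genes tested did. Another 6 had both below (Usp29, Snrpn, Blcap, Zdbf2, Peg13 and Nap1l5; 15.8%), where 7.8% of all genes did. The largest of the former was Plagl1, a zinc finger transcription factor, with 21.7 to 39.4 CPM in control and 42.1 and 46.5 CPM in Morc2a∆n (log2 fold change 0.45 ± 0.26, edgeR adjusted p = 0.581). Mirg, the host transcript of a microRNA cluster, had 54.1 to 69.5 CPM in control and 76.2 and 79.8 CPM in Morc2a∆n (log2 fold change 0.32 ± 0.17, adjusted p = 0.517).

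**Figure D3:**
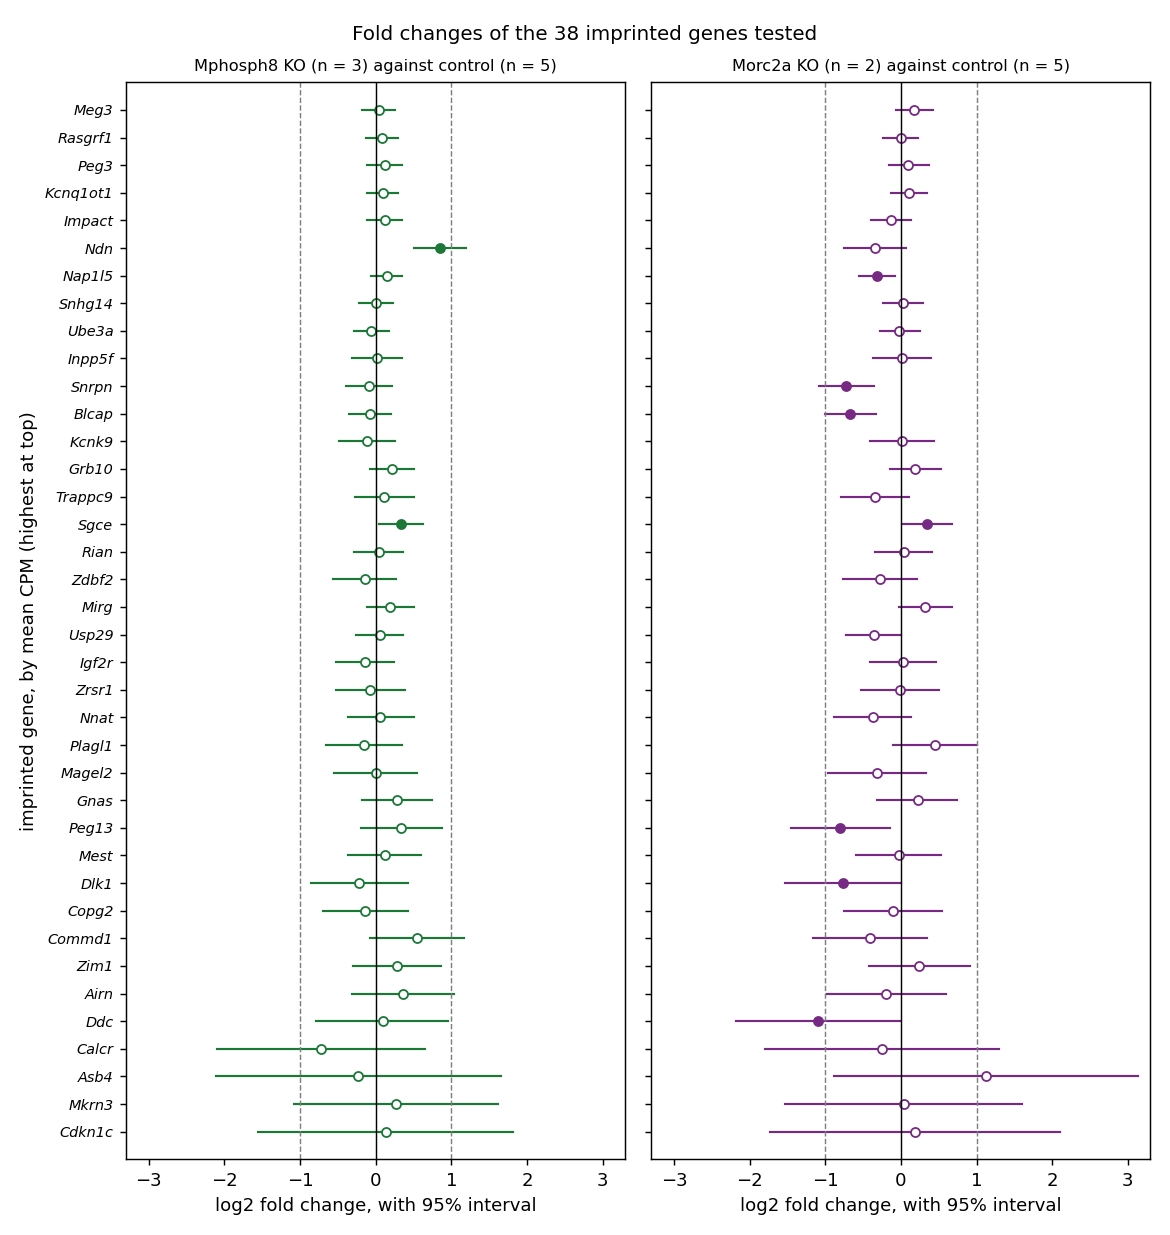
Log2 fold change with its 95% interval for the 38 imprinted genes tested, Mphosph8∆n against control on the left and Morc2a∆n against control on the right, with genes in the order of their mean CPM, filled points for an unadjusted p below 0.05 and dashed lines at a 2-fold change. Filled points are 2 on the left and 7 on the right, and intervals widen toward the bottom, where counts are low.

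By parental origin, the 24 paternally expressed genes (20 tested) gave a median of 0.09 on the log2 scale in Mphosph8∆n and of -0.16 in Morc2a∆n. Positive values were 15 and 6 (75% and 30%) against the pooled controls, where 48.7% of all genes were positive in each comparison. The share in Mphosph8∆n depended on the controls. With controls of the same floxed line, Usp29 (-0.02), Snhg14 (-0.01), Magel2 (-0.17) and Rasgrf1 (-0.01) lay below 0, while Zrsr1 moved from -0.08 to 0.00. Between the control lines 6 of the 20 were positive (30%). The 12 maternally expressed genes (9 tested) had medians of 0.04 and 0.18, with 5 and 7 positive. The 9 genes whose expressed allele depends on isoform or tissue, all tested, had medians of 0.09 and -0.11, with 6 and 4 positive. No group had a gene past the threshold, and the groups were not tested against each other.

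The Snrpn-Ube3a locus on chromosome 7, altered in the Prader-Willi and Angelman syndromes, held 7 of the genes over 3240 kb. Its long transcripts overlapped between groups. Snhg14, the long host RNA of a snoRNA cluster that runs antisense into Ube3a, had 315 to 376 CPM in control, 317 to 398 CPM in Mphosph8∆n, and 359 and 361 CPM in Morc2a∆n, with 95% intervals of -0.22 to 0.23 and -0.23 to 0.29 on the log2 scale. Ube3a, the ubiquitin ligase gene silenced on the paternal allele in neurons, had 288 to 338 CPM in control, 278 to 331 CPM in Mphosph8∆n, and 341 and 288 CPM in Morc2a∆n. Of its exonic bases 27.3% are shared with genes on the opposite strand such as Snhg14, and the strand setting of the counting is not given in the sources used here. The tested intronless neighbours of Ndn overlapped with control in Mphosph8∆n. Magel2, another MAGE family gene, had 30.1, 34.4 and 21.1 CPM there against 21.4 to 37.4 CPM in control (log2 fold change 0.00 ± 0.26), and Mkrn3, a RING finger gene, had 0.967 to 4.76 CPM there against 1.25 to 3.61 CPM in control (0.27 ± 0.64).

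**Figure D4:**
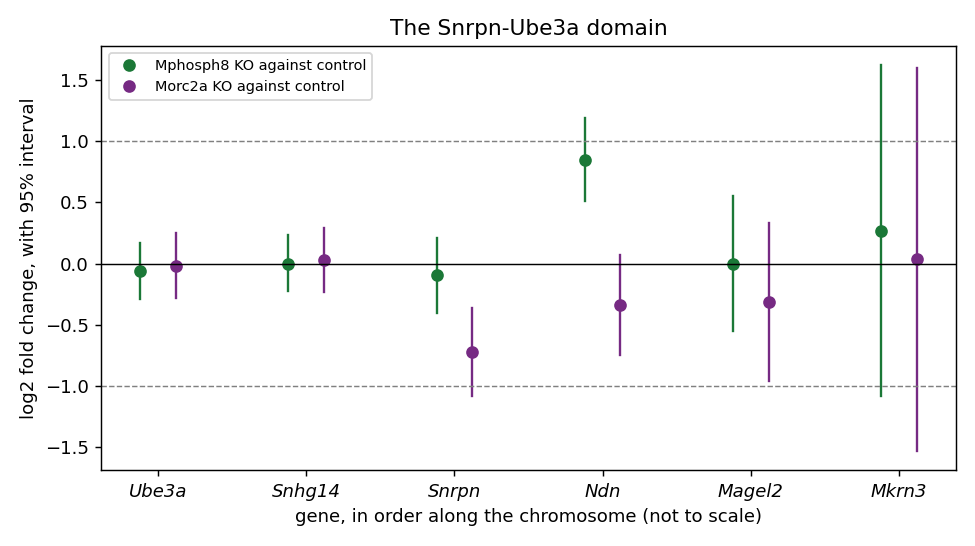
Log2 fold change with its 95% interval for the 6 tested genes of the Snrpn-Ube3a locus in their order along chromosome 7 (not to scale), for Mphosph8∆n and Morc2a∆n (KO) against the same 5 controls, with dashed lines at a 2-fold change. Ndn in Mphosph8∆n (0.85) and Snrpn in Morc2a∆n (-0.72) lie farthest from 0, while Ube3a and Snhg14 lie between -0.06 and 0.03.

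The Dlk1-Dio3 locus on chromosome 12 carries maternally expressed noncoding RNAs beside paternally expressed protein-coding genes. Meg3 had 12200, 8730, 9340, 8030 and 8900 CPM in control, 9680, 9520 and 9890 CPM in Mphosph8∆n, and 9720 and 11700 CPM in Morc2a∆n. The groups overlapped, with log2 fold changes of 0.04 ± 0.11 and 0.18 ± 0.12 and control replicate 1 as the highest library of all. With single libraries left out the value in Morc2a∆n was 0.04 to 0.31. Compared with the 2 Morc2a fl/fl controls alone, which had 8030 and 8900 CPM, both Morc2a∆n libraries were higher, with a log2 fold change of 0.34 (edgeR adjusted p = 0.452). Rian, which hosts snoRNAs, had 68.6 to 78.6 CPM in control, 63.3 to 93.6 CPM in Mphosph8∆n, and 84.7 and 66.9 CPM in Morc2a∆n, again with overlap.

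The Peg3 locus on chromosome 7 encodes zinc finger proteins and a ubiquitin protease. Peg3 had 554 to 715 CPM in control, 645 to 767 CPM in Mphosph8∆n, and 645 and 749 CPM in Morc2a∆n (log2 fold changes 0.12 ± 0.11 and 0.10 ± 0.12). Usp29, transcribed from the other side of the Peg3 promoter, had 54.4 to 72.8 CPM in control and 54.3 and 49 CPM in Morc2a∆n, just below the lowest control (log2 fold change -0.36 ± 0.17). Zim1, a maternally expressed zinc finger gene, had 7.42 to 13.2 CPM in control and 13.6 and 13.9 CPM in Morc2a∆n (0.24 ± 0.31).

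At loci where a long noncoding RNA silences its neighbours in cis, neither the RNA nor those neighbours that were tested passed the threshold. Kcnq1ot1 had 591 to 734 CPM in control, 656 to 693 CPM in Mphosph8∆n, and 701 and 652 CPM in Morc2a∆n. Its neighbour Cdkn1c, a cyclin-dependent kinase inhibitor, had 0.297 to 4.1 CPM in control and a 95% interval of -1.56 to 1.81 in Mphosph8∆n, so that at this depth a change of 2-fold was not detectable. Airn had 6.52 to 11.9 CPM in control, 9.67 to 15.7 CPM in Mphosph8∆n, and 10.9 and 5.68 CPM in Morc2a∆n. Igf2r, the receptor that clears IGF2 and carries lysosomal enzymes, had 36.5 to 56.3 CPM in control, 37.4 to 50.7 CPM in Mphosph8∆n, and 54.7 and 44.3 CPM in Morc2a∆n, with overlap in both comparisons.

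Rasgrf1 and Impact were abundant and overlapped between groups, while Inpp5f and Zdbf2 varied more within Mphosph8∆n. Rasgrf1, a Ras exchange factor of neurons, had 774 to 931 CPM in control, 867 to 991 CPM in Mphosph8∆n, and 886 and 825 CPM in Morc2a∆n, with 95% intervals of -0.13 to 0.29 and -0.24 to 0.23. Impact, a regulator of translation, had 404 to 498 CPM in control, 465 to 535 CPM in Mphosph8∆n, and 374 and 470 CPM in Morc2a∆n. Inpp5f, a phosphoinositide phosphatase gene, had 200 to 239 CPM in control and a wider spread in Mphosph8∆n, where replicate 3 had 145 CPM and replicates 1 and 2 had 242 and 268 CPM. Zdbf2, a zinc finger gene, was likewise low in Mphosph8∆n replicate 3, with 40.5 CPM against 84.4 and 87.8 CPM in the other libraries of the group and 73.4 to 81.4 CPM in control.

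Grb10, an adaptor of growth factor receptors that neurons express from the paternal allele, had 80.9 to 102 CPM in control, 93.3 to 119 CPM in Mphosph8∆n, and 90.3 and 118 CPM in Morc2a∆n. Gnas, which encodes the stimulatory G protein subunit, had 17.2 to 21 CPM in control, 18.7 to 30.5 CPM in Mphosph8∆n, and 23.9 and 21.6 CPM in Morc2a∆n, and 22% of its exonic bases are shared with other genes. Kcnk9, a maternally expressed potassium channel, and Trappc9, a vesicle trafficking gene, had 89.8 to 129 CPM and 48.6 to 90.9 CPM in control and overlapped in both knockouts. Mest, Copg2, Commd1 and Zrsr1 had control levels between 9.73 CPM (Commd1) and 43 CPM (Zrsr1), and the largest of their log2 fold changes was 0.55 ± 0.30 for Commd1, a copper homeostasis gene, in Mphosph8∆n (edgeR adjusted p = 0.916). It had 10.2, 23.6 and 19.7 CPM there, the highest in replicate 2, and without that replicate the value was 0.30 (adjusted p = 0.986). With other single libraries left out the value of Commd1 reached up to 0.83. Other genes on the opposite strand overlap with 23.1% of the exonic bases of Mest and 17.8% of those of Copg2.

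Among genes with few counts, fold changes were large but imprecise. Asb4, which is known from hypothalamic neurons, had 0.297 to 5.39 CPM in control and 10.1 and 0.413 CPM in Morc2a∆n, so that a log2 fold change of 1.12 ± 0.96 came from 1 library. Calcr, the calcitonin receptor gene, had 1.78 to 7.22 CPM in control and 1.04, 1.26 and 6.21 CPM in Mphosph8∆n (log2 fold change -0.73 ± 0.65). Both genes overlapped with the control range.

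The controls come from both floxed lines, and a difference between the lines would move a comparison with pooled controls. Between the 2 Morc2a fl/fl and the 3 Mphosph8 fl/fl controls, none of the 38 passed the threshold, where 24 of all genes did (0.129%, or 0.172% without a minimum fold change), and the median log2 fold change was -0.05, with 11 of 38 positive (28.9%) against 49.6% of all genes. An unadjusted p below 0.05 was found for 2 of the 38 (5.26%), against 9.21% of all genes. These 2 were Meg3 (-0.25, edgeR adjusted p = 0.524) and Rasgrf1 (-0.23, adjusted p = 0.527), and none of the 38 passed with DESeq2 or limma-voom. The Morc2a fl/fl controls lay above the others for 1 gene (Grb10, 2.63%), where 14.1% of all genes did, and below for 5 (Kcnq1ot1, Igf2r, Asb4, Blcap and Rasgrf1; 13.2%), where 15.1% of all genes did.

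Whether the 2 knockouts differ in effect was tested as an interaction, each against the controls of its own line. None of the 38, and none of all genes tested (0%), had an adjusted p below 0.05 with edgeR, and none of the 38 did with DESeq2 or limma-voom. An unadjusted p below 0.05 was found for 5 of the 38 (13.2%), against 7.95% of all genes. Ndn had the smallest p of the 38, with a difference of -0.98 ± 0.28 on the log2 scale (95% interval -1.58 to -0.38, edgeR adjusted p = 0.41), followed by Nap1l5 with -0.46 ± 0.17 (adjusted p = 0.517). Without Mphosph8∆n replicate 2 the difference of Ndn was -0.77 ± 0.27 (adjusted p = 0.522). With all genes of at least 1 count tested it passed the threshold (-0.96, adjusted p = 0.00468), and without that replicate it did not (-0.74, adjusted p = 0.179).

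Of 38 further imprinted genes at these and other loci, 37 were in the files and 27 were tested. None passed the threshold in either knockout in edgeR's test, 4 and 6 had an unadjusted p below 0.05 in Mphosph8∆n and Morc2a∆n (14.8% and 22.2%, against 5.67% and 10.7% of all genes), and their median log2 fold changes were -0.05 in Mphosph8∆n and -0.04 in Morc2a∆n. The 2 described next were chosen after their values were seen. Cobl, an actin nucleator gene next to Grb10, had 45.8, 58.7, 54.7, 35.5 and 36.4 CPM in control, 30.1, 35.4 and 30.8 CPM in Mphosph8∆n, and 20.6 and 25.9 CPM in Morc2a∆n. All knockout libraries lay below every control, with log2 fold changes of -0.53 ± 0.21 (edgeR adjusted p = 0.81) and -0.99 ± 0.25 (adjusted p = 0.147), and with controls that differed by -0.56 between the floxed lines (adjusted p = 0.435). Of all genes tested, 2.26% lay below every control in Mphosph8∆n and 7.8% in Morc2a∆n. Slc22a3, an organic cation transporter gene near Igf2r, had 1.56 to 3.37 CPM in control, 0.104, 0.773 and 0.518 CPM in Mphosph8∆n, and 1.7 and 1.96 CPM in Morc2a∆n, with a log2 fold change of -2.31 ± 0.87 in Mphosph8∆n (adjusted p = 0.81) that rests on few counts. Cd81, a tetraspanin gene near Kcnq1, was the most abundant (mean 489 CPM), with 466, 603, 530, 450 and 532 CPM in control, 557, 580 and 451 CPM in Mphosph8∆n, and 416 and 302 CPM in Morc2a∆n. Both Morc2a∆n libraries of Cd81 lay below all controls (log2 fold change -0.52 ± 0.15, edgeR adjusted p = 0.22). Herc3, within which Nap1l5 lies, had log2 fold changes of -0.12 ± 0.15 and 0.00 ± 0.17, and Rtl1, a gene of retrotransposon origin beside Meg3, had -0.05 ± 0.14 and 0.25 ± 0.16.

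The genes that keep imprints were a list of 14, of which 13 were tested and none passed the threshold in edgeR's test, with medians of -0.01 in Mphosph8∆n and 0.20 in Morc2a∆n and an unadjusted p below 0.05 for 0 and 2 of them (0% and 15.4%, against 5.67% and 10.7% of all genes). The 2 were Zfp445 and Trim28. Zfp445 was the most abundant of the list (mean 570 CPM), with 570, 468, 525, 504 and 661 CPM in control and 638 and 752 CPM in Morc2a∆n (log2 fold change 0.35 ± 0.15, edgeR adjusted p = 0.396). Trim28, the corepressor that KRAB zinc finger proteins recruit, had 290 to 342 CPM in control and 381 and 428 CPM in Morc2a∆n (0.34 ± 0.14, adjusted p = 0.385). Setdb1 had 131 to 164 CPM in control, 127 to 186 CPM in Mphosph8∆n, and 140 and 195 CPM in Morc2a∆n, so that the groups overlapped. The maintenance methyltransferase gene Dnmt1 overlapped between groups as well, Zfp57 had at most 1.55 CPM in any library, and Dppa3, an oocyte and germ cell factor, had 0 counts throughout.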

How the data were processed

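Raw read counts per gene, deposited without normalization, were used for all 10 libraries. The authors made libraries of poly(A) RNA, sequenced them from a single end, trimmed the reads (Trim Galore 0.5.0), removed reads on abundant sequences with Bowtie2 2.3.4.1, aligned the rest to GRCm38 with STAR and counted reads in Ensembl release 94 genes with featureCounts (Subread 1.6.2). Strand setting and treatment of reads in overlapping genes are not given in the sources used here. Symbols, positions and shared exonic bases came from GENCODE M21 by Ensembl identifier (54409 of 54532 genes), and promoter windows from RefSeq.

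All tests were run in R 4.3.3, the main one with edgeR 4.0.16. Genes were filtered by filterByExpr on the 3 groups, library sizes were scaled by TMM, and all libraries entered 1 quasi-likelihood fit (common dispersion 0.141). The Benjamini-Hochberg adjustment covered the 18573 genes tested. Calls needed a fold change of more than 2 with an adjusted p under 0.05. A second fit with the controls split by floxed line gave the comparison of the lines and the interaction, which was called by the adjusted p alone. CPM are counts over scaled library sizes, and standard errors are those of log2 fold changes. Counting limits for 0 counts cover counting error only. The analysis was tested on simulated data.

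The 45 genes, the lists of other imprinted genes (of which Ipw was not found), of genes that keep imprints and of markers, and the tests were chosen with earlier results of these data known. The genes described were those called, the 8 with the smallest p in each knockout, those whose knockout libraries lay beyond all controls at a mean of at least 1 CPM, the most abundant of each locus, and those at 0 in 5 or more libraries, with the rest of the 45 given by range. The alternatives were DESeq2 1.42.0 and its size factors, limma-voom (limma 3.58.1), all genes with at least 1 count, a filter of at least 10 counts per library, same-line controls, the 2 compared groups alone, the replicate number as a block, each library left out, and no minimum fold change. Figures were drawn with Python 3.11.15, pandas 2.3.3 and matplotlib 3.10.9.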

Additional observations from a re-analysis of the deposited data

Results flagged for a closer look

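Of 42 imprinted genes with a count among the controls, 3 had a control library far from the other 4 relative to the range of the group, and chance flags about 1 in 20 such groups. Dio3 had 2.23 CPM in control replicate 5, where the other controls had at most 0.281 CPM. Zim1 had 7.42 CPM in control replicate 2, below 11.7 to 13.2 CPM in the others, so that its separation from both Morc2a∆n libraries does not rest on that library. The log2 fold change of Zim1 in Morc2a∆n was 0.12 to 0.29 with single libraries left out. Kcnq1ot1 had 734 CPM in control replicate 1 against 591 to 615 CPM in the others.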

How the results depend on the processing

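No imprinted gene was called in Mphosph8∆n or between the control lines under any alternative. In Morc2a∆n 0 to 1 were called with single libraries left out (Snrpn, without Morc2a∆n replicate 1), and for the interaction 1 was called (Ndn) with all genes of at least 1 count, and 0 with that filter and without Mphosph8∆n replicate 2, an alternative added after seeing the data. Without a minimum fold change, Ndn had an adjusted p below 0.05 in Mphosph8∆n in 7 of 18 alternatives, and Snrpn and Blcap in Morc2a∆n in 3 of 18 each.

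The count over all genes moved more. In Mphosph8∆n (18) it was 87 with all genes of at least 1 count, 43 with DESeq2, 10 with controls of the same line, and 6 to 21 with a library left out. In Morc2a∆n (11) it was 98 with all genes of at least 1 count, 24 with genes of at least 10 counts, 27 with DESeq2, 6 with the compared groups alone, 46 with the replicate block, and 3 to 26 with a library left out. The median of the 38 in Mphosph8∆n (0.07) was 0.01 with controls of the same line and -0.01 with the block, and that in Morc2a∆n (-0.01) was -0.07 with the block and -0.09 to -0.02 with a library left out.

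Signs turned for log2 fold changes near 0. In Mphosph8∆n, limma-voom gave Ddc -0.03 and Inpp5f -0.02, controls of the same line gave Meg3 -0.06, Usp29 -0.02 and Rasgrf1 -0.01, and the replicate block gave Meg3 -0.05, Usp29 -0.03, Ddc -0.17, Inpp5f -0.02 and Rasgrf1 -0.01. In Morc2a∆n, limma-voom gave Kcnk9 -0.01, controls of the same line gave Inpp5f -0.01, and the block gave Igf2r -0.14 and Inpp5f -0.11, while Rasgrf1 (0.00) was 0.14 with controls of the same line and -0.11 with the block. With a library left out, the ranges that crossed 0 in Mphosph8∆n were Meg3 -0.01 to 0.15, Ddc -0.17 to 0.47, Inpp5f -0.15 to 0.24, Kcnk9 -0.22 to 0.05, Zrsr1 -0.39 to 0.10, Plagl1 -0.27 to 0.02, Zdbf2 -0.32 to 0.14 and Usp29 -0.01 to 0.13. In Morc2a∆n they were Kcnk9 -0.39 to 0.33, Zrsr1 -0.10 to 0.06, Inpp5f -0.15 to 0.16, Igf2r -0.12 to 0.17, Mest -0.11 to 0.05, Impact -0.32 to 0.03, Peg3 -0.01 to 0.21, Rasgrf1 -0.05 to 0.04 and Grb10 -0.02 to 0.38. The cause was not tested.

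Libraries of different groups with the same replicate number had residual correlations of -0.0275 to 0.0428 (7 pairs) and others -0.0552 to 0.0406 (24), and the numbers were therefore not treated as pairs. A block could not be fitted for the line comparison and the interaction. Between replicates the chi-square per degree of freedom was 9.55 to 38.4, so the spread between libraries exceeds counting error.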

Other observations

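Zfp264, a zinc finger pseudogene next to Usp29 in the Peg3 region and one of the further imprinted genes, was not called between the floxed lines or in either knockout, and was chosen after its values were seen. It had 0 counts in all 6 libraries of the Mphosph8 floxed line, 3 control and 3 Mphosph8∆n. In the 4 libraries of the Morc2a floxed line it had 13 and 12 counts in control replicates 4 and 5, and 7 and 10 counts in Morc2a∆n. Zfp264 thus passed the filter on low counts only through these 4 libraries. Of all genes tested, 14.1% had both Morc2a fl/fl controls above the Mphosph8 fl/fl controls. The adjusted p of Zfp264 between the control lines was 0.351 in edgeR's test. Its log2 fold change of -5.54 in Mphosph8∆n with pooled controls (edgeR adjusted p = 0.872) stands beside 0 counts in the Mphosph8 fl/fl controls.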
